A study of Mus musculus with 16 samples.

Results

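The cytosolic ribosomal protein genes, which encode the protein parts of the ribosome that works outside mitochondria, were read across the aortae of wild-type and Vamp8-deficient mice. They were taken by name: every row whose symbol starts with Rpl or Rps, without hyphenated symbols (mostly processed pseudogenes), the Rps6k kinases, Rps19bp1, and the Rps3a1 copies Rps3a2 and Rps3a3. This gave 89 of the 29695 genes of the count table, with 31 genes of the small subunit, 43 of the large subunit, 3 of the stalk, 9 paralogs of usual genes and 3 with other names (Rpl32l, Rpl6l and Rps23rg1). The expression filter kept 83 of the 89, among 15984 genes tested.

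Ribosomes are built from ribosomal RNA and one copy of most of these proteins, the small subunit reading the mRNA and the large subunit joining amino acids. Their mRNAs carry a 5′ terminal oligopyrimidine (TOP) tract, through which mTOR signalling controls their translation together. Because mRNAs of this kind are often regulated at translation, their RNA level can stay even while protein output changes. In mice, many ribosomal protein genes have processed pseudogenes, copies of the spliced mRNA inserted elsewhere in the genome, so that short reads can match several places.

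The tissue was suprarenal aorta of male mice, sequenced as poly-A RNA, with 4 libraries in each of 4 groups. C57BL/6 wild-type mice (WT) and Vamp8-/- mice (KO) received saline or angiotensin II (AngII, a vasoconstrictor peptide) at 1000 ng/kg/min from a subcutaneous osmotic minipump for 5 days. The labels tie the deletion to no promoter or cell type. Aortae with overt pathology or bleeding in the wall had been left out by the submitters, which limits the AngII groups to vessels without them. All 7 smooth muscle markers had reads in every group. In whole tissue, fewer cells of a type and less RNA per cell cannot be told apart.

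Libraries held 13284800 to 21643500 counted reads (6 significant digits). Vamp8 lay at 45.9 to 60.9 CPM in the 8 WT libraries, 14.1 to 26.7 CPM in the KO AngII libraries and 24.9 to 31.4 CPM in 3 KO saline libraries, where CPM, the read count relative to the library total, was scaled by TMM (trimmed mean of M values). The library labelled KO saline replicate 1 was at 53.3 CPM, inside the WT range and against its label, and at 38.2 CPM unscaled, below every WT library. It had the lowest TMM factor (0.716). Mitochondrially encoded genes held 30.5% of the reads in KO saline against 12.6% to 16.1% in the other group means. The summed smooth muscle marker level was 9285 CPM in KO saline and 12469 to 17230 CPM in the other groups, the summed brown adipocyte marker level reached 8162 CPM in the library labelled KO saline replicate 1, and that of the neuronal and chromaffin markers 3302 CPM in KO AngII replicate 4. The part of any of these in the results was not tested. Of all genes counted, 2725 had no symbol and no read in any WT library, so how WT and KO reads were counted cannot be told apart from genotype.

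The members held 1.79% to 2.52% of the reads of a library (276209 to 454748 reads). With saline the share was 2.29% ± 0.34 for WT and 2.02% ± 0.064 for KO, and with AngII 2.19% ± 0.24 for WT and 2.18% ± 0.16 for KO (mean ± SD, n = 4). As a share of reads outside mitochondrial genes it was 2.64% ± 0.32 and 2.91% ± 0.18 with saline and 2.50% ± 0.19 and 2.6% ± 0.12 with AngII, WT before KO. KO saline was thus the lowest group by the first measure and the highest by the second. Small-subunit genes supplied 43.0% ± 0.26 and 43.1% ± 0.45 (saline) and 42.5% ± 0.52 and 42.7% ± 0.15 (AngII) of the reads of small-subunit, large-subunit and stalk genes. With copies named after a member, and Rps3a2 and Rps3a3, added to their gene, the small-subunit share was 42.7% ± 0.24 and 42.3% ± 0.41 in the WT groups (saline, then AngII) and 43.6% ± 0.16 and 42.6% ± 0.15 in the KO groups. By that measure the KO saline libraries (43.4% to 43.8%) lay above every other library, the highest of which was at 43.1%.

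**Figure D1:**
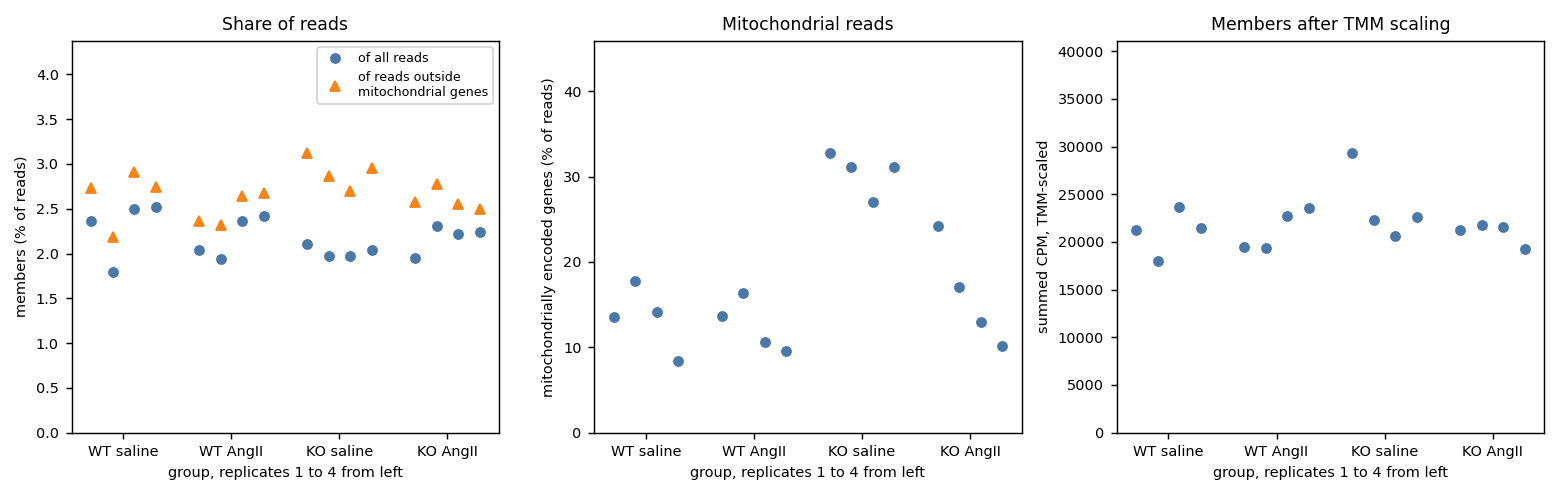
Each point is a library. The left panel plots the members' share of all reads and of reads outside mitochondrial genes (percent), the middle panel the mitochondrial share (percent), the right panel the members' summed CPM after TMM scaling. KO saline stands at 27.0% to 32.8% mitochondrial reads, and the library labelled KO saline replicate 1 is the highest in the right panel.

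Most members varied less between replicates than the median tested gene, in a comparison not matched for read level. The highest coefficient of variation (SD over mean) of a tested member was 42.0% and 45.8% in the WT groups and 169% and 55.7% in the KO groups (saline, then AngII). The median coefficient of variation of the tested members was 12.7% and 10.8% in the WT groups (saline, then AngII) and 18% and 8.0% in the KO groups, against 23.0%, 18.5%, 23.9% and 24.6% over all tested genes.

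Levels were compared between genes per kilobase of 1 GENCODE M21 transcript a gene, as the mean of TMM-scaled CPM over the 16 libraries. They depend on the transcript chosen, which was long for Rps15a (5130 bases, 390 of them coding) and Rps20 (3706 bases, 357 coding). Rplp1, a P protein of the stalk that recruits elongation factors, ranked first at 1180 CPM per kb. Rpl41, a very short large-subunit protein, followed at 948 CPM per kb, and Rps14, a small-subunit protein deleted in 5q- syndrome, at 869 CPM per kb. Rps3a1, a small-subunit protein, ranked 6 at 592 CPM per kb, and Rplp0, the stalk base that holds the P1 and P2 proteins, ranked 11 at 534 CPM per kb. The median was 396 CPM per kb over 31 tested small-subunit genes and 338 CPM per kb over 42 tested large-subunit genes. Without division by length the highest means were those of Rplp0 (724 CPM), Rpsa (702 CPM), a small-subunit protein that is also a laminin receptor precursor, and Rpl4 (621 CPM), which lines the exit tunnel; these are longer transcripts.

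Some usual genes were almost absent from the counts. Rpl24, a large-subunit protein, had 0.37, 0.45, 0.45 and 0.26 CPM in the WT groups (saline, then AngII) and the KO groups (likewise), and was the only usual gene that failed the filter. Rps10, a small-subunit protein mutated in Diamond-Blackfan anaemia, was at 1.74, 1.46, 1.73 and 1.21 CPM in the same order. Its copy Rps10-ps2 was at 41.8, 40.2, 50.9 and 44.9 CPM, and its coding sequence differs from that of Rps10 at 5 of 495 bases. Rpl13a, a large-subunit protein with a role in silencing inflammatory mRNAs, stood at 13.7, 16.2, 17.4 and 14 CPM. For Rps10, copies held 97.0% of the reads of gene and copies together, and for Rpl24 95.2%, so the counts of these genes alone cover a small part of such reads. For Rpl13a copies held 8.4%. With copies added, the means were still low, at 50.7 CPM for Rps10, 7.93 CPM for Rpl24 and 16.7 CPM for Rpl13a. Without copies, the median was 272 CPM over tested small-subunit genes and 237 CPM over tested large-subunit genes. Over the 16 libraries, 4 of the 83 tested members had fewer reads than their copies together (Rps10, Rpl17, Rpl21 and Rpl34). For 28 the copies held over 10% of the joint reads. For Rpl34 this pools unlike groups: the gene was at 153 and 164 CPM in WT and 20.4 and 1.29 CPM in KO (saline, then AngII).

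The tested paralogs lay below their usual genes per kilobase of transcript. Rps27l, a p53 target, was at 154 CPM per kb and Rps27rt at 174 CPM per kb, beside 493 CPM per kb for Rps27. Rpl7l1, found in pre-ribosomes, was at 26.7 CPM per kb beside 440 CPM per kb for Rpl7. Rpl22l1 was at 62.0 and Rpl22 at 378 CPM per kb, Rpl37rt at 54 and Rpl37 at 226 CPM per kb, and Rps4l at 21.4 and Rps4x at 451 CPM per kb. Group means ran from 67.5 to 92.0 CPM for Rps27l, the highest in KO saline with 1 library at 152.9 CPM and the next at 72.5 CPM. They ran from 52.1 to 76.2 CPM for Rps27rt, 28.6 to 37.9 CPM for Rpl22l1 and 14.8 to 21.1 CPM for Rps4l. Rpl36al and Rpl39l were under 0.5 CPM in every group mean. Rpl3l, the striated muscle form of Rpl3, was listed at 0 in 4 of the 8 WT libraries and reached 4.71 CPM in KO saline replicate 3. That library also held the highest summed level of 8 skeletal muscle markers, 616 CPM. Rps27rt is close in sequence to Rps27, and 98.4% of the 100-base windows of the Rps27 transcript recur in another gene's transcript, so reads of this pair are uncertain.

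**Figure D2:**
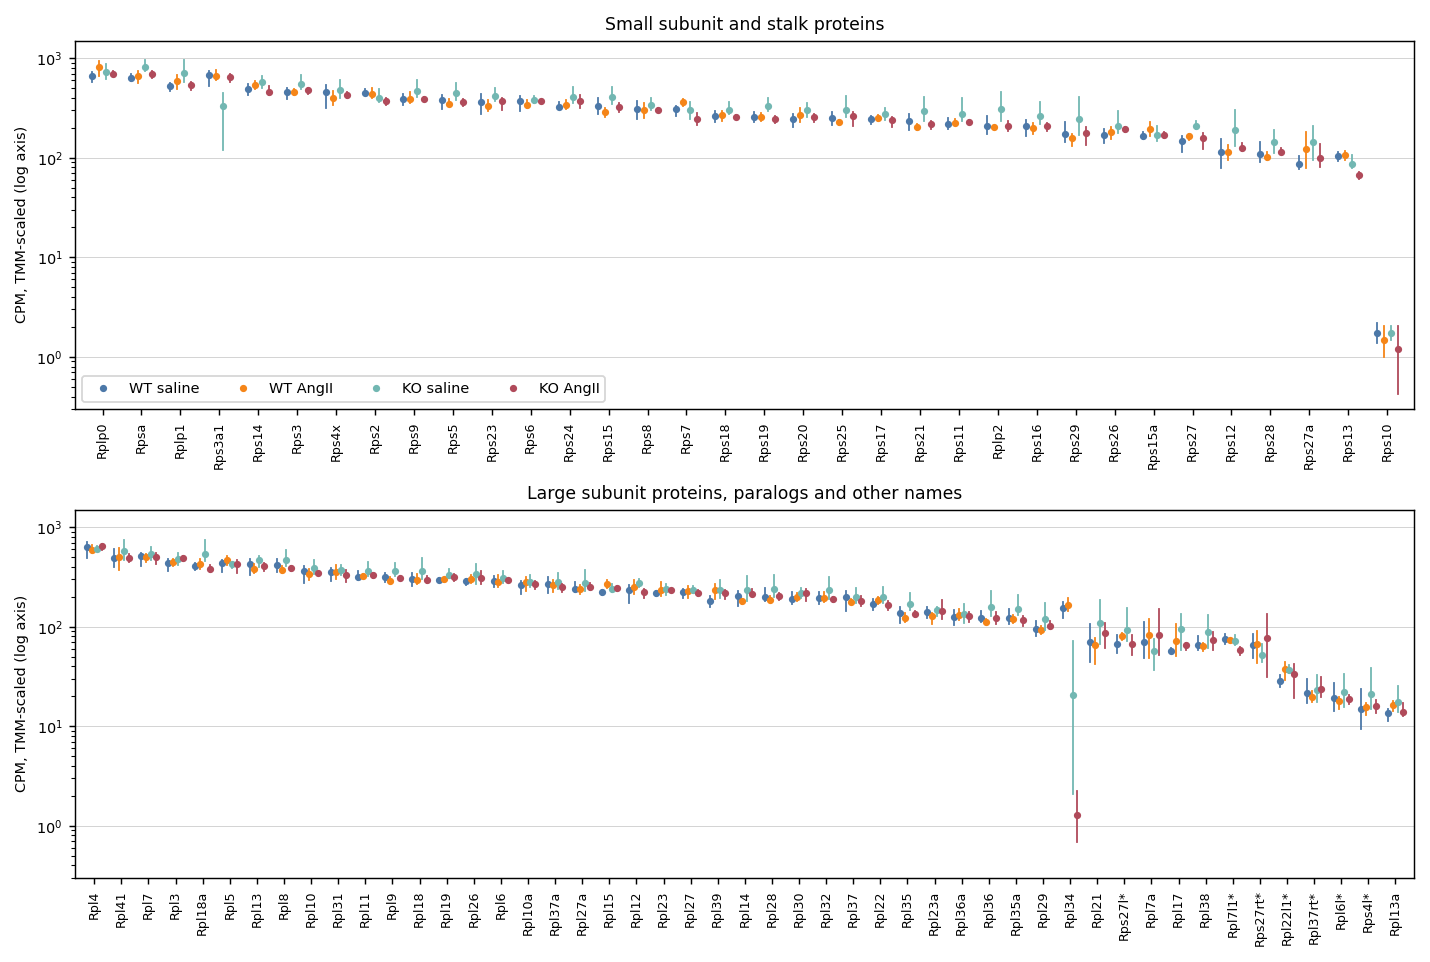
Points are group means of TMM-scaled CPM (log axis) for each of the 83 tested members, and vertical lines run from the lowest to the highest of the 4 libraries; asterisks mark paralogs and other names. Most members lie between 100 and 1000 CPM with overlapping groups, while Rpl34 lies lower in both KO groups and Rps3a1 in KO saline.

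No tested member passed the test for AngII against saline in WT aortae. By edgeR's quasi-likelihood test with Benjamini-Hochberg adjustment over all tested genes, 0 of 83 passed an adjusted p of 0.05 (lowest adjusted p = 0.470), where 0.444% of all tested genes passed. At an unadjusted p under 0.05 there were 2, both higher; 8.8% of all tested genes had such a p, and 5.58% were higher. Fold changes were positive in 43 and negative in 40 members, and the median log2 fold change was 0.00 beside -0.01 over all tested genes. This split moved with single libraries: 63 were positive without WT saline replicate 3 (median 0.086) and 32 without WT AngII replicate 4 (median -0.046). With voom 27 were positive (median -0.062), and on plain library totals 23 (median -0.068). The standard error of a member's log2 fold change had a median of 0.15, and none of the 83 moved by more than 0.5.

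Single members show how close the groups were. Rps6, the S6 kinase target, was at 380, 293, 419 and 395 CPM in the 4 WT saline libraries and 329, 316, 344 and 377 CPM in WT AngII (log2 fold change -0.12, SE 0.13). The ranges overlapped. Rpl5 and Rpl11, which bind 5S ribosomal RNA and restrain Mdm2, had log2 fold changes of 0.11 (SE 0.14) and 0.03 (SE 0.12). Rplp0 was at 682, 582, 723 and 679 CPM in WT saline and 714, 664, 924 and 934 CPM in WT AngII (log2 fold change 0.28, SE 0.16, adjusted p = 0.659 by the same edgeR test), with overlap. Rpl15 and Rpl39, both large-subunit proteins and chosen here after their values were seen, were the 2 with an unadjusted p under 0.05, at log2 fold changes of 0.27 and 0.35. Rpl15 was the only tested member whose WT AngII libraries all lay above WT saline, as did 3.67% of all tested genes.

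Under AngII, 2 of 83 members (2.41%) were called between KO and WT by the same edgeR test, both lower. Of all tested genes 2.03% were called, and 1.03% were called lower. The members' share was near that of all tested genes, so the count is not a result about the members as a set. The called members were Rpl34, a large-subunit protein, and Rps13, a small-subunit protein. At an unadjusted p under 0.05 there were 4 members, all lower, beside 17.9% of all tested genes in either direction and 7.64% lower. The median log2 fold change of the members was 0.03 beside 0.04 over all tested genes. KO lay below WT without overlap in 6.02% of the members and 4.8% of all tested genes, and above it in 1.2% and 4.54%.

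Rpl34 (ENSMUSG00000062006) had 144, 145, 172 and 196 CPM in the 4 WT AngII libraries and 1.26, 0.98, 2.24 and 0.68 CPM in KO AngII, with no overlap. It fell by 6.98 on the log2 scale (SE 1.05, adjusted p = 0.00315, edgeR). In KO saline it was at 4.65, 2.07, 2.88 and 72.1 CPM, the last in replicate 4, against 123 to 175 CPM in WT saline (log2 fold change -2.90, SE 0.85, adjusted p = 0.0735 by the same test).

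The processed pseudogene Rpl34-ps1 moved the other way. It was at 8.79, 13.8, 17.9 and 12.5 CPM in WT AngII and 137, 152, 145 and 138 CPM in KO AngII (adjusted p = 1.48e-05 by edgeR, with a log2 fold change of 3.43 and an SE of 0.30). In KO saline it was at 249, 178, 153 and 75.0 CPM, lowest in replicate 4, where Rpl34 was highest. The sum of gene and copy was 163 ± 23.2 and 177 ± 26.5 CPM in the WT groups (saline, AngII) and 184 ± 48.2 and 144 ± 6.99 CPM in the KO groups. In a fit with copies summed into their gene, Rpl34 had a log2 fold change of -0.30 under AngII (adjusted p = 0.401 by the same test).

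Part of the coding sequences is shown, bases 112 to 338 of each, because it holds every coding difference between them. Rpl34 lies at chr3:130726831-130730398 (minus strand) and Rpl34-ps1 at chr6:71124610-71124963 (plus strand) in the GENCODE M21 annotation of GRCm38, an older build than the GRCm39 of the counts. Capitals mark the 2 differences within 351 coding bases, T132C and C318G, counted from 1 at the A of the start codon, with the gene's base first. The longest identical stretch is 185 bases.
Rpl34: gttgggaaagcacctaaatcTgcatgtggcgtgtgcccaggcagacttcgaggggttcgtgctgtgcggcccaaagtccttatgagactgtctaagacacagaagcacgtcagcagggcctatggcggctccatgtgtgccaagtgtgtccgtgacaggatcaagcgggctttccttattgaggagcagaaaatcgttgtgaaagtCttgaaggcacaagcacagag
Rpl34-ps1: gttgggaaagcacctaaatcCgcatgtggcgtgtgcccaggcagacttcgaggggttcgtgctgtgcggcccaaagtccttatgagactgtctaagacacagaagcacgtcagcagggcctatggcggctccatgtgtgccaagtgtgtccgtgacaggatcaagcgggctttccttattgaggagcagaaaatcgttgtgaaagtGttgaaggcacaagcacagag

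Rps13 (ENSMUSG00000090862), a conserved small-subunit protein, had 94.8, 103, 116 and 114 CPM in WT AngII and 61.6, 63.2, 69.9 and 72.5 CPM in KO AngII, without overlap. It fell by 0.68 on the log2 scale (SE 0.13, adjusted p = 0.0117, edgeR). With saline the log2 fold change was -0.28 (SE 0.12, adjusted p = 0.208), and the groups overlapped. The copy Rps13-ps1 rose from 2.07 ± 0.21 to 47.5 ± 2.18 CPM under AngII and from 2.39 ± 0.60 to 58.3 ± 12.7 CPM under saline (n = 4; log2 fold changes 4.51 and 4.60, edgeR adjusted p = 4.49e-09 and 3.13e-09). Another copy, Rps13-ps2, fell from 7.80 ± 1.77 to 0.32 ± 0.094 CPM under AngII (log2 fold change -4.55, adjusted p = 5.59e-05 by the same edgeR test). Summed, Rps13 and its copies gave 117 ± 11.2 CPM in WT AngII and 115 ± 3.95 CPM in KO AngII, and the log2 fold change was -0.02 (adjusted p = 0.962).

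Rps13-ps2 has the same 453 coding bases as Rps13, and Rps13-ps1 differs by T411C and A429G, counted as above. Rps13 lies at chr7:116331505-116334195 (minus strand) and Rps13-ps1 at chr8:87047689-87048226 (plus strand) in GRCm38. Coding bases 391 to 449 hold both differences, marked by capitals.
Rps13: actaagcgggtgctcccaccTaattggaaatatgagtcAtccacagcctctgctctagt
Rps13-ps1: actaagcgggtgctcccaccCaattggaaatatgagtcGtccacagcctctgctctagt

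Rps7, a small-subunit protein that binds Mdm2 and was named here after its values were seen, was next in order of p under AngII. It had 330, 337, 390 and 387 CPM in WT AngII and 264, 284, 213 and 225 CPM in KO AngII, with no overlap but an adjusted p of 0.0631 (log2 fold change -0.55, SE 0.15). Its copy Rps7-ps3, with 3 differences in 582 coding bases, rose from 72.9 ± 5.17 to 126 ± 21.5 CPM (log2 fold change 0.78, edgeR adjusted p = 0.0124). Gene and copies summed to 434 ± 35.6 and 372 ± 17.5 CPM. With copies summed into their genes, 0 of 83 members were called in KO against WT under AngII, with 1 at an unadjusted p under 0.05. The shares of all tested genes in that fit are not given here, so these counts are not a result about the members.

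**Figure D3:**
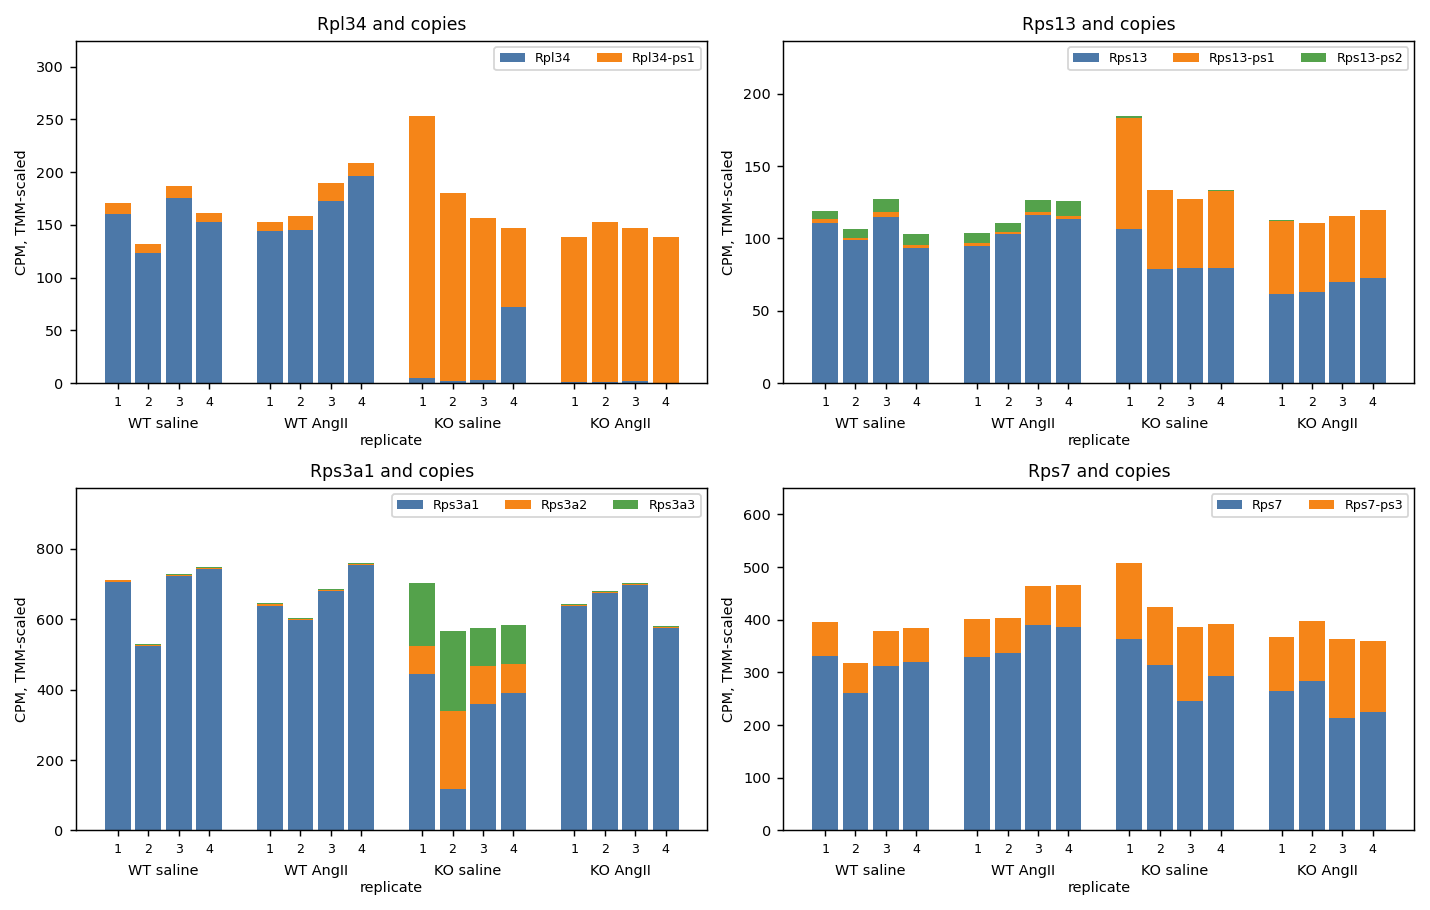
Stacked bars give TMM-scaled CPM of a member and its copies in each of the 16 libraries, with replicate numbers under the bars. Rpl34-ps1 and Rps13-ps1 make up much of the bars in the KO libraries, and Rps3a2 and Rps3a3 in the KO saline libraries, while the whole bars of WT and KO overlap.

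Under saline, no member was called between KO and WT by the edgeR test (lowest adjusted p = 0.0628), where 3.01% of all tested genes were. At an unadjusted p under 0.05 there were 14 higher and 3 lower, or 20.5% of the members beside 21.8% of all tested genes (10.1% higher, 11.7% lower). Of the 83, 72 had a positive fold change, and the median was 0.21 beside 0.05 over all tested genes. DESeq2 called 5 members and limma voom with library quality weights called 6. The share of all tested genes called by each is not given here, so these counts are not a result about the members.

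Rps3a1 (ENSMUSG00000028081) had the lowest p. It was at 706, 524, 722 and 742 CPM in WT saline and 444, 119, 359 and 390 CPM in KO saline, with no overlap (log2 fold change -1.04, SE 0.29, adjusted p = 0.0628). WT AngII was at 667 ± 66.6 CPM and KO AngII at 647 ± 53.3 CPM, so KO saline was the group that stood apart. Rps3a3 was at 156 ± 57.4 CPM in KO saline and 2.01 to 2.20 CPM in the other group means. Rps3a2 was at 123 ± 66.6 CPM in KO saline and 3.44 to 3.83 CPM in the others. KO saline replicate 2 had the lowest Rps3a1 and the highest level of both copies (221 CPM of Rps3a2 and 226 CPM of Rps3a3). The sums were 680 ± 101 CPM in WT saline and 607 ± 64.8 CPM in KO saline, and with copies summed the log2 fold change was -0.16 (edgeR adjusted p = 0.525).

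Rps3a1 lies at chr3:86137940-86142702 (minus strand), Rps3a2 at chr14:88123017-88123808 (minus strand) and Rps3a3 at chr13:108670603-108671397 (plus strand) in GRCm38. Rps3a2 differs at 4 and Rps3a3 at 8 of the aligned coding bases. Bases 196 to 280 are shown because they hold T216C, shared by both copies, and T260C of Rps3a3 alone; both positions are in capitals.
Rps3a1: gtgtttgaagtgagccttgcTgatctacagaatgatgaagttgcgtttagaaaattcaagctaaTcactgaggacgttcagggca
Rps3a2: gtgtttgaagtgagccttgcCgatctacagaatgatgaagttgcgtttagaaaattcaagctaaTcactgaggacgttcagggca
Rps3a3: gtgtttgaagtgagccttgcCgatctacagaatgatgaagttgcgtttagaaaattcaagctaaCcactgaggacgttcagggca

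The stalk proteins Rplp1 and Rplp2 lay at 971, 647, 579 and 636 CPM and at 458, 289, 266 and 237 CPM in KO saline. In WT saline they were at 466 to 569 CPM and 172 to 263 CPM. The log2 fold changes were 0.44 (SE 0.18, adjusted p = 0.173) and 0.58 (SE 0.19, adjusted p = 0.110) by the edgeR test, and in both genes the first value, of the library labelled KO saline replicate 1, was the highest. Rpsa was at 956, 789, 738 and 810 CPM in KO saline and 589 to 700 CPM in WT saline, without overlap (log2 fold change 0.37, SE 0.14, adjusted p = 0.153). Rpl4 had a log2 fold change of -0.08 (SE 0.14) and Rps6 of 0.03 (SE 0.13). Rps27, a zinc-binding small-subunit protein chosen after its values were seen, was at 202, 234, 194 and 211 CPM in KO saline. WT saline was at 115 to 167 CPM, also without overlap (log2 fold change 0.51, SE 0.14, adjusted p = 0.0648 by the edgeR test). Its paralog Rps27rt went the other way, with a ratio of KO to WT saline means of 0.79, beside 1.42 for Rps27. Reads of this pair are uncertain, and the copy sums do not join them. The part of read counting in these values was not tested. Under saline, KO lay above WT without overlap in 8.43% of the members and 5.17% of all tested genes, and below it in 2.41% and 5.94%.

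The median of KO against WT under saline moved with single libraries. The library labelled KO saline replicate 1 was the highest of its group in 72 of 83 members, with a median ratio of 1.35 to the mean of the other 3. Without it, the median log2 fold change of KO against WT under saline was 0.04 beside 0.00 over all tested genes, with 53 members positive. The sign of the median also turned with the scaling: on plain library totals it was -0.14 with 17 members positive, where the median over all tested genes was -0.28. The members' median thus lay 0.16 above that of all genes with TMM and 0.14 above it with plain totals, and 0.04 above it without that library. WT saline replicate 2 was the lowest of its group in 66 of 83 members, and without it the members' median lay 0.092 above that of all genes, with 62 positive. Without WT saline replicate 3, the highest of its group in 66 members, it lay 0.22 above. With voom and its library weights, the median was 0.057 beside 0.049 over all tested genes, with 56 positive.

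Within KO, 0 members were called between AngII and saline, where 0.0501% of all tested genes were called by edgeR. At an unadjusted p under 0.05 there were 1 higher (Rps3a1) and 15 lower, 19.3% of the members beside 19.2% of all tested genes (11.8% higher, 7.39% lower). The median log2 fold change was -0.22 beside 0.02, with 73 of 83 negative; without the library labelled KO saline replicate 1 it was -0.06, with 56 negative, and with voom -0.065, with 54 negative. Rps3a1 had a log2 fold change of 0.98 (SE 0.29, adjusted p = 0.140), and 0.10 (adjusted p = 0.714) with copies summed. Rpl34 had one of -3.98 (SE 0.95, adjusted p = 0.107), and only KO saline replicate 4 held more than 5 CPM of it. DESeq2 called 3 members here and voom 2, again without a share of all tested genes beside them. This comparison shares the KO saline libraries with the last one.

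The genotype by AngII interaction called 0 members by edgeR, with 12 at an unadjusted p under 0.05 (1 higher, 11 lower), where 0.0188% of all tested genes were called and 11.2% had such a p (6.61% higher, 4.61% lower). The median was -0.21 beside 0.01 over all tested genes, and -0.03 without the library labelled KO saline replicate 1.

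**Figure D4:**
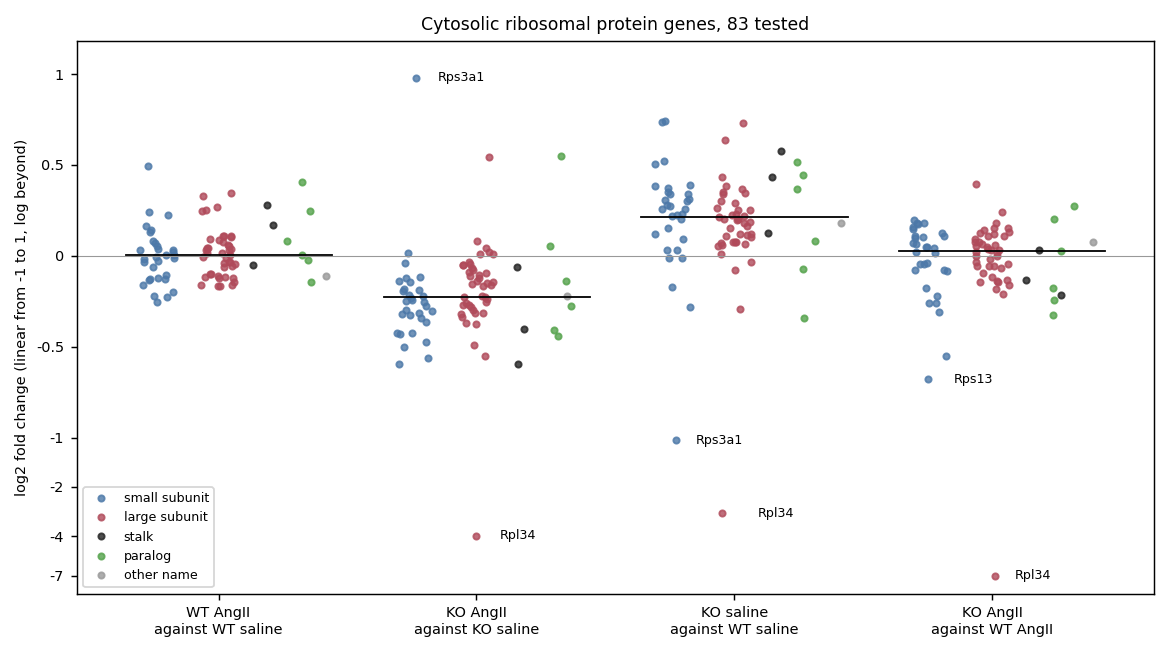
Each point is 1 of the 83 tested members, coloured by role, and black lines are medians; the vertical axis is the log2 fold change, linear from -1 to 1 and logarithmic beyond. The medians lie near 0 for AngII in WT and for KO against WT under AngII, at -0.22 for AngII in KO and at 0.21 for KO against WT under saline.

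The copies were tested as genes of their own in the same fit. Of 166 tested copies, found by sequence and belonging to 69 members, 11 (6.6%) were called under saline and 9 (5.4%) under AngII by edgeR, against 3.01% and 2.03% of all tested genes. Those under saline were 10 higher and 1 lower in KO, from 7 members, and those under AngII 7 higher and 2 lower, from 5 members. None of the 166 was called between AngII and saline in WT. Within KO the 2 called copies were Rps3a2 and Rps3a3, both lower with AngII. Summing copies by sequence moved the log2 ratio of group means by over 0.3 in 4 members under saline (Rpl17, Rpl34, Rps13 and Rps3a1), in 4 under AngII (Rpl34, Rps7, Rps10 and Rps13), in 5 for AngII in KO (Rpl17, Rpl34, Rpl7a, Rps10 and Rps3a1) and in none for AngII in WT.

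Fau and Rack1, which also encode ribosome components, were called in no comparison. Of 16 elongation factors and other TOP mRNAs 0 were called in any of the 5 comparisons by edgeR, with Pabpc1, a poly-A binding protein, at a log2 fold change of 0.35 (SE 0.14, adjusted p = 0.427) for AngII in WT. Of 28 ribosome biogenesis genes 0 were called either; Ncl, which encodes nucleolin, was at 0.42 (SE 0.11, adjusted p = 0.128) for AngII in KO. Of 13 growth control genes 0 were called, and Myc, which drives ribosome production, had a log2 fold change of 1.03 (SE 0.35, adjusted p = 0.323) for AngII in WT. At an unadjusted p under 0.05 the lists of elongation factors, biogenesis and growth control had 3, 1 and 1 genes for AngII in WT (8.8% of all tested genes) and 1, 7 and 1 for AngII in KO (19.2%). For KO against WT they had 4, 3 and 3 under saline (21.8%) and 1, 2 and 0 under AngII (17.9%), and for the interaction 0, 3 and 0 (11.2%).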

How the data were processed

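Whole-number read counts by gene were deposited, not normalised by the authors. The submitters' processing notes name build GRCm39 and DESeq2 1.20.0, featureCounts 1.5.0-p3 and HISAT2 2.0.5; for strand and multi-mapping reads the setting is not stated in what was used here. Members and lists were chosen with earlier results of these data known. Genes passing edgeR's default filter were TMM-scaled and tested with edgeR 4.0.16 (R 4.3.3) in 1 fit of 16 libraries with 12 residual degrees of freedom, two-sided, with calls where the Benjamini-Hochberg adjusted p was below 0.05. The SE is the absolute log2 fold change over the square root of F. Labels call the libraries biological replicates. The fit was also run on simulated counts with set fold changes. No reads passed between a gene and its copies there, so that run cannot speak for calls where they do. Alternatives were other scalings and filters, DESeq2 1.42.0, limma voom 3.58.1, a replicate block, summed copies, and libraries left out. Sequence copies are GENCODE M21 (GRCm38) transcripts matching a member's coding sequence at 90% identity over 80% of its length (BLAST 2.17.0); the sum over these was chosen after seeing the data. The text names called members, the 5 highest and 5 lowest, paralogs, untested usual genes, members with known roles and their copies; others are marked.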

Additional observations from a re-analysis of the deposited data

Results flagged for a closer look

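In a group of 4 libraries, a value was noted when its gap to the nearest library was a larger part of the group's range than Dixon's test allows by chance at 95%; over 112 groups chance gives about 1 in 20, or 5.6, and 11 were noted. In KO saline the library labelled replicate 1 was highest for Rpl13a (25.1 CPM, next 15.7), Rps13 (106.6 CPM, next 79.3), Rps27l (152.9 CPM, next 72.5), Rps4l (38.1 CPM, next 15.8) and the members' median log2 CPM (8.48, next 7.97), and lowest for Rpl5 (388.7 CPM, next 430.5). KO saline replicate 4 was highest for Rpl34 (72.1 CPM, next 4.65), and KO saline replicate 3 for Rpl3l (4.71 CPM, next 0.80). KO AngII replicate 4 was highest for Rpl13a (17.1 CPM, next 13.3). WT saline replicate 2 was lowest for Rpl4 (488.5 CPM, next 668.1) and Rps3a1 (524.2 CPM, next 706.3).

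The copies Rps3a2 and Rps3a3 were called by edgeR's genotype by AngII interaction test, and KO saline was the group that stood apart. The log2 fold changes were -5.16 (SE 0.43, adjusted p = 2.86e-05) for Rps3a2 and -6.32 (SE 0.41, adjusted p = 2.28e-06) for Rps3a3, and both were higher in each KO saline library than in every KO AngII library. Within KO, Rps3a1 went the other way, with a log2 ratio of AngII to saline means of 0.98, and of 0.10 with copies added. The part of read counting in the interaction of the copies was not tested.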

How the results depend on the processing

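With copies summed, by name or by sequence, 0 members were called in KO against WT under AngII, in place of 2; under saline the log2 fold change turned positive for Rpl34 (0.18 by name, 0.16 by sequence) and Rps13 (0.35 both ways). In KO against WT under saline, where edgeR called 0, plain library totals called 5 (Rpl34, Rpl7l1, Rps13, Rps2 and Rps3a1, all lower), DESeq2 5 (Rps12, Rps19, Rps27 and Rpsa higher, Rps3a1 lower), voom 6 and the replicate block 1 (Rpl34). For AngII in KO, DESeq2 called 3 (Rps19, Rps27 and Rps3a1) and voom 2 (Rps27 and Rps3a1). DESeq2 gave no adjusted p for Rpl34. These counts stand without the share of all tested genes called in each setting, so they are not a result about the members. On plain totals the median over all tested genes was itself -0.28 for KO against WT under saline.

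Plain totals moved the members' median log2 fold change to 0.067 for AngII in KO, -0.14 for KO against WT under saline and 0.17 for the interaction, where the median over all tested genes moved to 0.29, -0.28 and 0.35. The interaction median was 0.038 with voom. Without both KO AngII replicate 4 and the library labelled KO saline replicate 1, medians were -0.034 for AngII in KO and -0.011 for the interaction. Leaving mitochondrial genes out of the total gave shares of 2.64%, 2.50%, 2.91% and 2.6% in the WT (saline, AngII) and KO groups. With named copies, the KO saline share was 2.17% and its small-subunit share 43.6%, beside 42.3% to 42.7% in the other groups.

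Leaving out 1 library at a time gave 1 to 3 calls for KO against WT under AngII: Rpl34 alone without WT AngII replicate 3 or 4, and Rpl34, Rps13 and Rps7 without the library labelled KO saline replicate 1. Under saline it gave 0 to 2: Rpl34 and Rps3a1 without WT saline replicate 2, Rps3a1 without KO saline replicate 2, Rpl34 without KO saline replicate 4 and Rps27 without KO AngII replicate 3. The cause was not tested, and shares over all tested genes are not given beside these counts. Same-numbered libraries did not pair (correlations of -0.49 to 0.48, 7 of 16 closest to their own number). Rpl24, Rpl32l, Rpl36al, Rpl39l, Rpl3l and Rps23rg1 failed the expression filter, and the part of depth in the results was not tested.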
